A study of Drosophila melanogaster with 2 samples.

Results

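Respiratory complex I subunit genes were examined for promoter peaks of woc, a zinc finger protein of chromatin, in ChIP-seq of whole Drosophila melanogaster larvae. The genes were all nuclear protein-coding genes whose symbol starts with ND- in the Ensembl release 115 annotation, 40 of the 13945 protein-coding genes on X, 2L, 2R, 3L, 3R and 4. Of the 40 genes, 34 are the main copy of a subunit, each with a mammalian counterpart among the synonyms of its RefSeq entry. The other 6 are duplicates of a main copy, as their symbols show (such as ND-20L, ND-24L, ND-51L1, ND-51L2 and ND-B14.5AL). The larvae carried a stable transgene for woc with a C-terminal eGFP, were wandering larvae of the third instar, and were pooled males and females of unknown age. Chromatin was sonicated and the GFP tag was immunoprecipitated. Biological replicates 1 and 3 of 1 transgenic line, 1 library each, formed 1 group with no other genotype, treatment or time, so conditions could not be compared and no test between groups was made. The fusion protein, not the native one, was measured, and whole larvae mix all tissues, so a peak present in few cells can fall below the lists' thresholds.

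Complex I takes electrons from NADH, passes them along a flavin and a chain of iron-sulfur clusters to ubiquinone, and pumps protons across the inner mitochondrial membrane. Its N module oxidises NADH, its Q module reduces quinone, and its membrane-embedded P module carries the proton pumps. Core subunits carry out the chemistry, accessory subunits surround them, and the core membrane subunits are encoded by the mitochondrial genome and so are not among the nuclear genes described here. The modules and nearly all subunits are conserved between flies and mammals, and the fly genes are described by their mammalian counterparts.

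Peaks came from the authors' optimal list, 6636 peaks that are the pooled peaks with a signal of 99.6 or more, and from the relaxed pooled list of 29999 peaks. Signal is a value of the authors' peak caller whose meaning is not stated. It was used to describe and rank peaks within a list. Read totals were not used, so depth is unknown. A gene is called bound here if the summit of an optimal peak falls no more than 500 bp from one of its transcription start sites (TSS), and its score is the highest signal among such peaks. Ranks are among the 6614 optimal peaks on the arms. All coordinates are on dm6 and counted from 1.

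Woc peaks lay at the promoters of 13 complex I genes. They included ND-ASHI, ND-MWFE, ND-24, ND-51, ND-SGDH, ND-42, ND-MNLL, ND-20, ND-B17, ND-AGGG, ND-MLRQ and ND-B22. The 13 genes made up 32.5% of the 40 genes (exact 95% interval 18.6% to 49.1%), against 21.9% of all protein-coding genes, and the interval includes the share of all genes. The interval covers counting error over genes only, not the spread between animals. The median signal of the 13 bound complex I genes was 220 (122 to 601), against 238 over all 3058 bound genes, and 6 of the 13 lay above that median. A further 6 complex I genes had a summit in the relaxed pooled list only, and 21 had none in either list. With any pooled summit counted, 19 of 40 complex I genes (47.5%) had one, against 38.5% of all genes.

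**Figure D1:**
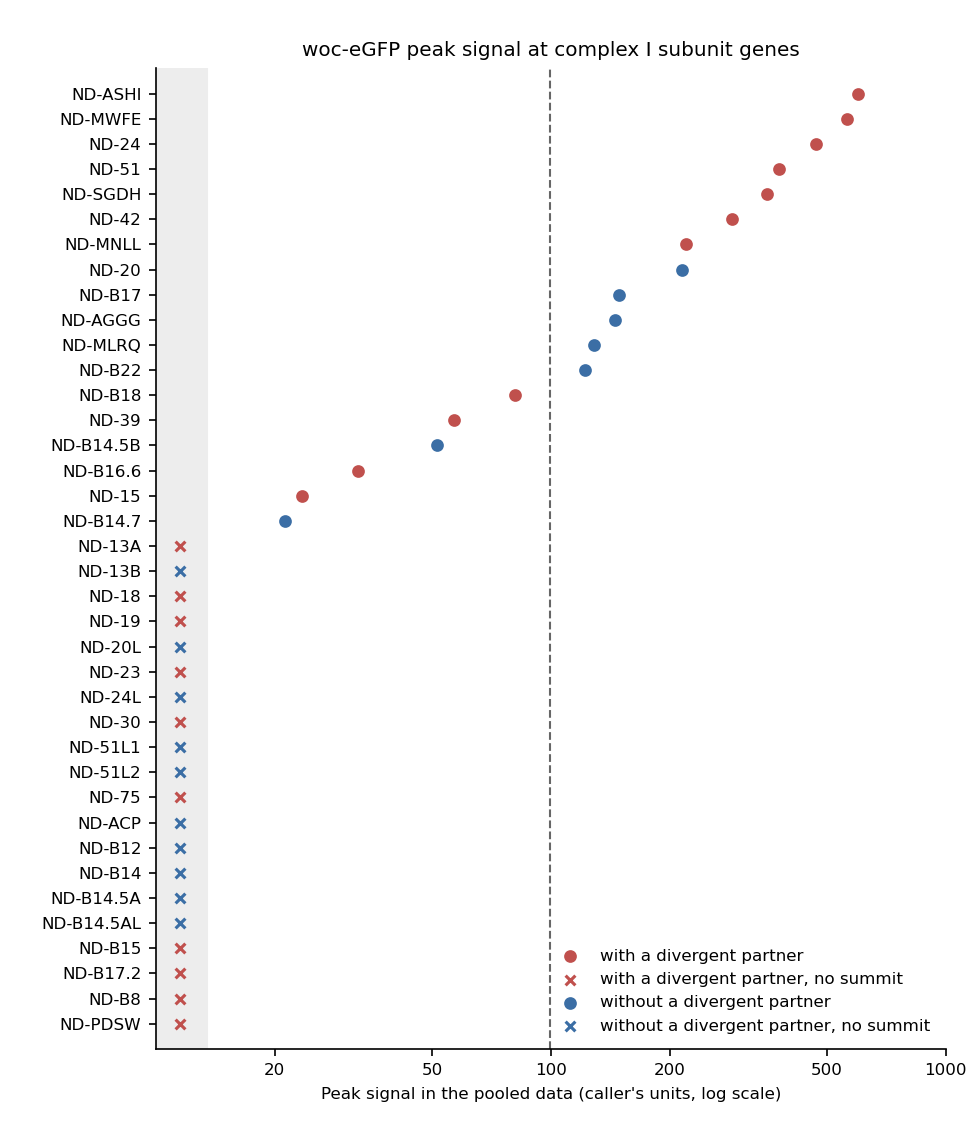
Peak signal in the pooled data (log scale) at the complex I genes reported singly, red where the gene has a divergent partner within 1000 bp and blue where it has none. Dots are scored genes, crosses in the grey band are genes with no summit, and the dashed line is the lowest signal of the optimal list. The bound genes lie between 122 and 601 and the 6 others with a summit between 21.3 and 81.1.

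Among the 7 main-copy genes of the N module, 2 were bound (28.6%, exact 95% interval 3.67% to 71.0%), near the 21.9% of all genes. Both encode core subunits. ND-24, the counterpart of NDUFV2 with an iron-sulfur cluster, had a signal of 471 (rank 708; 209 in replicate 1 and 263 in replicate 3). Its summit, X:17632206, lay 115 bp upstream of the downstream one of its 2 start sites, in an intron of the transcripts that begin at the other. ND-51, the counterpart of NDUFV1 that binds NADH and the flavin, had a signal of 379 (rank 1086; 135 in replicate 1 and 235 in replicate 3), with an intergenic summit at 2L:6062852, 95 bp upstream of its start. The third core gene of the module, ND-75 (NDUFS1), had no pooled summit within 500 bp. Its nearest optimal summit, X:8252473 with a signal of 378, lay 786 bp from its start, the shortest such distance among the 27 unbound complex I genes. The accessory genes ND-18 (NDUFS4), ND-13A (NDUFS6, a zinc-binding subunit), ND-B8 (NDUFA2) and ND-B17.2 (NDUFA12) had no pooled summit either.

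Among the 8 main-copy genes of the Q module, 2 were bound, again core subunits. ND-20 (NDUFS7), which holds the cluster that hands electrons to quinone, had a signal of 215 (rank 2658; 86.1 in replicate 1 and 126 in replicate 3). Its summit at X:15986895 was 87 bp upstream of the start, in intergenic sequence. The core genes ND-30 (NDUFS3) and ND-23 (NDUFS8) and the accessory genes ND-13B (NDUFA5), ND-B14 (NDUFA6) and ND-B14.5A (NDUFA7) had no pooled summit. ND-39 (NDUFA9) was in the relaxed list only. The acyl carrier protein gene ND-ACP, whose product sits in both the Q and the P module, had none. Over both modules, each nuclear core gene included, 4 of 7 core genes were bound (57.1%, exact 95% interval 18.4% to 90.1%). Of the 27 accessory main copies, 9 were bound (33.3%, interval 16.5% to 54.0%), among them ND-MLRQ, which was placed in no module. Both intervals include the 21.9% of all genes, and core and accessory genes were not tested against each other.

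The P module holds 17 of the 27 accessory main copies, and 8 of the 17 were bound (47.1%, exact 95% interval 23.0% to 72.2%), against 21.9% of all genes, just below the interval. Of the bound genes, ND-ASHI, ND-MWFE, ND-SGDH, ND-42 and ND-MNLL have a divergent partner (described below). Of all genes with such a partner 36.3% were bound, a share inside the interval. This module was among several subsets examined, and none was tested. With the 3318 optimal peaks of highest signal alone, 3 of these 8 fell out. The strongest peak at a complex I gene was that of ND-ASHI (NDUFB8), with a signal of 601 (rank 385; 193 in replicate 1 and 433 in replicate 3). Its summit, X:6679365, lay 247 bp upstream of the outermost of 3 starts, and another optimal peak of signal 177 (summit X:6678330) lay 70 bp upstream of an inner start. ND-MWFE (NDUFA1) followed with 561 (rank 464; 215 in replicate 1 and 353 in replicate 3), the summit 128 bp upstream of its start at 2R:13158538. ND-SGDH (NDUFB5) had 352 (rank 1238; 193 in replicate 1 and 208 in replicate 3), the summit at 3L:12138673, 89 bp upstream. A second optimal peak of ND-SGDH, with a signal of 173, had its summit 292 bp upstream. These 3 genes had the highest signals in the module and all were found in both libraries.

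ND-42 (NDUFA10) had a signal of 288 in the pooled data (rank 1758) and 178 in the replicate 3 library, but no peak of the replicate 1 library overlapped it. The nearest summit of replicate 1 was 1629 bp from it. The pooled summit of ND-42, 3R:22027423, lay 286 bp upstream of its start, the longest distance among the 13 bound genes, and in the 5' untranslated region of the neighbouring gene Cchl. ND-MNLL (NDUFB1) had a signal of 220 (rank 2580; 79.3 in replicate 1 and 144 in replicate 3), with the summit at X:7893844, 46 bp upstream of a start that CG45089, read on the same strand, shares. A peak there belongs to both annotated genes.

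The remaining bound P module genes had weaker peaks, all below the median of all bound genes. ND-B17 (NDUFB6) had 149 (summit 2L:15751194, 116 bp upstream; 58.1 in replicate 1 and 100.2 in replicate 3) and a second optimal peak of 120 with its summit 351 bp upstream. ND-AGGG (NDUFB2) had 145 (summit 3L:24976199, 55 bp upstream; 53.4 in replicate 1 and 95.3 in replicate 3). It lies far out towards the centromeric end of the arm as assembled: only 15 of 2739 protein-coding genes of 3L start beyond it. Of these 15 genes 9 were bound, against 22.45% of all genes on 3L. ND-B22 (NDUFB9) had 122 (summit 2L:13371098, 12 bp downstream of the start in the 5' untranslated region; 52.6 in replicate 1 and 77.6 in replicate 3). ND-B22 was the weakest bound complex I gene, and just below the threshold came ND-B18 (NDUFB7) with 81.1. ND-MLRQ, the counterpart of NDUFA4, which in mammals is assigned to complex IV and so was placed in no module here, had 129 (summit 3L:23339274, 52 bp upstream; 55.8 in replicate 1 and 67.4 in replicate 3). The −log10 q of the peak was at the list's ceiling of 3.94 for 9 of the 13 bound genes and below it for 4, among them ND-AGGG, ND-MLRQ and ND-B22.

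Promoter sequences are shown for the bound genes with the highest signals (that of ND-MWFE is not shown) and for ND-B18 and ND-15, near the top and the bottom of the unbound genes with a relaxed summit, so that promoters with strong and weak peaks can be read side by side. Each runs 5' to 3' along the gene's own strand, from 250 bases before the TSS nearest the summit to 50 bases after it, on the RefSeq genome sequence of the same assembly. The windows are chrX:6679069-6679368 (minus strand) for ND-ASHI, chrX:17632071-17632370 (plus) for ND-24, chr2L:6062708-6063007 (minus) for ND-51, chr3L:12138535-12138834 (minus) for ND-SGDH, chr3R:22027459-22027758 (plus) for ND-42 and chrX:7893749-7894048 (minus) for ND-MNLL. The unbound ones are chrX:15063483-15063782 (plus) for ND-B18 and chr2L:114476-114775 (plus) for ND-15. Capitals mark every match on either strand to 8 short motifs. The DRE was searched as TATCGATA, and the BEAF-32 core, which the DRE contains, as CGATA. The Motif 1 core was searched as GGTCACACT. One E-box was CACGTG, the other E-box searched was CAGCTG. The TATA box was searched as TATAAA, while the GAGA motif was GAGAGA and the initiator core was TCAGTT.
ND-ASHI: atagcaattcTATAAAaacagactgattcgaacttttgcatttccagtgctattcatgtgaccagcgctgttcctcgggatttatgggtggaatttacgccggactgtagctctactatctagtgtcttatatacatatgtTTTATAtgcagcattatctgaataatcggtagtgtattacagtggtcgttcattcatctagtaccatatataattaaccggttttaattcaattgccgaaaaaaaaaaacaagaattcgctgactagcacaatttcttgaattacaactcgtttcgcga
ND-24: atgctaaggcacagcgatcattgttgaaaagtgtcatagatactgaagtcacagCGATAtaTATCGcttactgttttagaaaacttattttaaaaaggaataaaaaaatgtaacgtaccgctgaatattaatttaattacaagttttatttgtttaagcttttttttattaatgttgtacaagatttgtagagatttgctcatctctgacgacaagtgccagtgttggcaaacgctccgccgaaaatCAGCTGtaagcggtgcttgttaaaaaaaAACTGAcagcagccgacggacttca
ND-51: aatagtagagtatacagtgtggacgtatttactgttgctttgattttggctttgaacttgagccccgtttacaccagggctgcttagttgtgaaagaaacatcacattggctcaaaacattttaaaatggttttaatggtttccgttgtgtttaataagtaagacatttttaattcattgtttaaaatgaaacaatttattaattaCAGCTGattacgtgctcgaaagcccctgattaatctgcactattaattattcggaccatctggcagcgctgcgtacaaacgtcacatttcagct
ND-SGDH: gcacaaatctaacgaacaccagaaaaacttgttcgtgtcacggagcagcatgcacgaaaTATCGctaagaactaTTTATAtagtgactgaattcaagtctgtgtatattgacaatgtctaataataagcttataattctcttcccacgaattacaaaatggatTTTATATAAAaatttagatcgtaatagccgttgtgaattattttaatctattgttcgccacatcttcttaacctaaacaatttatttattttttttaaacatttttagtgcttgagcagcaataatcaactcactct
ND-42: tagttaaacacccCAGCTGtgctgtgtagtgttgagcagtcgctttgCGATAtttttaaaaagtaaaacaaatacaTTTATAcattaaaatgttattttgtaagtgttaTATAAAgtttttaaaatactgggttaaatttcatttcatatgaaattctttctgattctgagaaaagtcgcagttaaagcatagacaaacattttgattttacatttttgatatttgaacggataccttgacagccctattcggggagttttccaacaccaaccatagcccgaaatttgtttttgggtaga
ND-MNLL: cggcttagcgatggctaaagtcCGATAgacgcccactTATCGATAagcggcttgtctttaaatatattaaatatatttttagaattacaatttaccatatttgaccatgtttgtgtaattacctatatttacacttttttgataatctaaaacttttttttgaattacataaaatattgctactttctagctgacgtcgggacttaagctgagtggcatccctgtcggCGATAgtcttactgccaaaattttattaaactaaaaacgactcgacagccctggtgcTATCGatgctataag
ND-B18: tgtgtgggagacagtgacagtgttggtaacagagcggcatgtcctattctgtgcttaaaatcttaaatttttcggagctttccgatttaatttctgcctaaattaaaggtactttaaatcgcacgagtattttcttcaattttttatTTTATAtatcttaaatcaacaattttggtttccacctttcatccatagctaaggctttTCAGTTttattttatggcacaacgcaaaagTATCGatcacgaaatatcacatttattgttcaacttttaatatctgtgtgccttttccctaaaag
ND-15: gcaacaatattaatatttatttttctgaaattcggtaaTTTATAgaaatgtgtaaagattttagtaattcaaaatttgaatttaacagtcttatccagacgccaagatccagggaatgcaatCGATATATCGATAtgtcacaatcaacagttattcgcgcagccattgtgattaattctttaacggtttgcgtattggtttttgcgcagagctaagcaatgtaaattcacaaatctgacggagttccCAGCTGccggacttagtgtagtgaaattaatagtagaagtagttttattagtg

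The strongest promoters did not carry a motif in common within these windows. The windows do not hold whole peaks: the summit of ND-42 lay outside its window and that of ND-ASHI at base 4 of 300. Part of both peaks was thus not searched. ND-ASHI held TATAAA and none of the other 7 motifs, and ND-51 held CAGCTG, starting 44 bases upstream of the TSS, and none of the others. ND-24 held CAGCTG from 3 bases upstream of the TSS, and the unbound ND-15, which had a relaxed signal of 23.4, held it at the same place. The DRE occurred in ND-MNLL, 213 bases upstream, and again in the unbound ND-15, 123 bases upstream. Over all 40 windows, the DRE was found in 1 of 13 bound and 5 of 27 unbound complex I genes (15% of the 40, against 9.36% of all genes). CGATA was found in 6 of the 13 and 15 of the 27 (52.5%, against 47.4%), and TATAAA in 10 of the 13 and 13 of the 27 (57.5%, against 45.8%).

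The E-box CAGCTG occurred in 4 bound complex I genes (ND-24, ND-51, ND-42 and ND-B17) and 10 unbound ones, 35.0% of the 40 against 17.7% of all genes. The Motif 1 core occurred in 2 bound genes (ND-MWFE and ND-B17) and 6 unbound ones (ND-39, ND-13A, ND-18, ND-ACP, ND-B14 and ND-PDSW), 8 of the 40 against 6.05% of all genes and 8.34% of all bound genes. Fewer complex I windows held TCAGTT (5 of 40, 12.5%, against 26.1% of all genes), GAGAGA (only that of the duplicate ND-24L, 2.5% against 12.3%) or CACGTG (only that of ND-PDSW, 2.5% against 4.20%). Windows of all genes were taken at the outermost start and had the same length. These letter matches are descriptions of the windows. The median GC content was 34.7% in the windows of bound complex I genes and 34.0% in those of unbound ones.

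Complex I genes often face another gene. A divergent partner, an opposite-strand protein-coding gene that points away with a TSS within 1000 bp, was annotated for 22 of the 40 (55.0%), against 36.2% of all genes. Since a peak between 2 starts counts for both genes, the count was read separately. With a partner, 8 of 22 complex I genes were bound (36.4%, exact 95% interval 17% to 59%), against 36.3% of all genes with a partner, nearly the same share. Without one, 5 of 18 were bound (27.8%, interval 9.70% to 53.5%), against 13.8% of all such genes, a share that the interval includes. With the 3318 strongest optimal peaks alone, 1 of the 18 was bound (5.56%). On that shorter list 14.2% of all genes were bound, and the share of all genes without a partner was not computed. Leaving out the 6 duplicates, none of which has a partner, 5 of 12 main copies without a partner were bound (41.7%, interval 15.2% to 72.3%), an interval whose lower limit lies above 13.8%, although the genes behind that share were not limited to main copies. The bound genes with a partner included ND-ASHI, ND-MWFE, ND-24, ND-51, ND-SGDH, ND-42 and ND-MNLL. The median signal of the 8 was 366, against 258 over all bound genes with a partner. That of the 5 without one (ND-20, ND-B17, ND-AGGG, ND-MLRQ and ND-B22) was 145 (122 to 215), against 215 over all bound genes without a partner. The 7 highest signals among complex I genes were all at genes with a partner, and signals of the 2 sets overlapped below these.

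**Figure D2:**
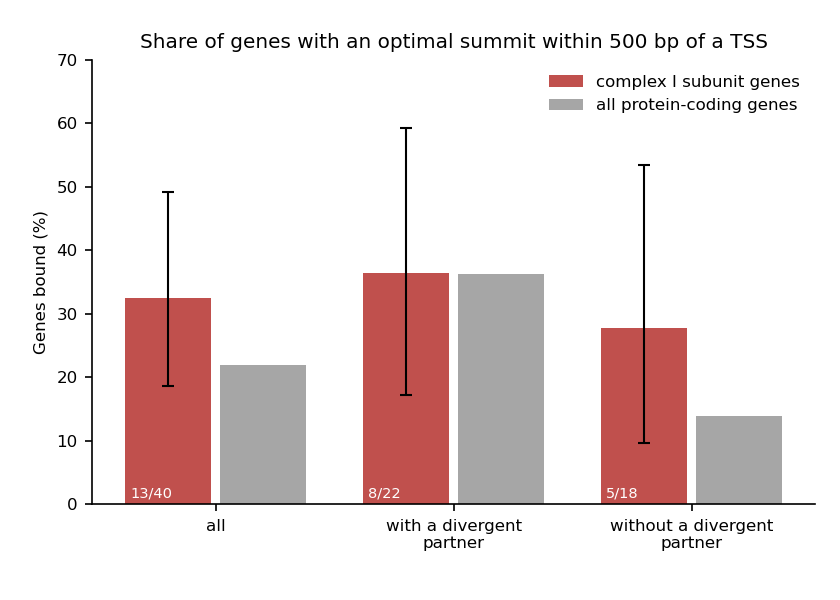
Percent of genes bound, for all genes and for those with and without a divergent partner, in complex I genes (red, with exact 95% intervals and counts) and in all protein-coding genes (grey). Each interval of the complex I genes includes the share of all genes of the same kind.

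At 7 of the 8 bound complex I genes with a partner the peak was the partner's peak too. A summit within 500 bp of both genes counts for both, so sharing follows in part from the rule. The matching share over all bound genes with a partner was not computed. ND-ASHI shared its summit with Fum1, a fumarase gene of the citric acid cycle, whose start lay 275 bp from it. ND-42 shared its summit with Cchl, which encodes the cytochrome c heme lyase, and the summit lay 57 bp from the Cchl start and not between the 2 starts. ND-MWFE shared its summit with TppII, a tripeptidyl peptidase gene, whose start was also the nearer one, at 93 bp. At ND-24 the partner was corolla, a gene of the synaptonemal complex (159 bp from the summit), at ND-51 CG13994 (137 bp), at ND-SGDH RhoGAP68F (195 bp), and at ND-MNLL p115, a vesicle tethering factor (187 bp). If a summit counted only for the gene with the nearest start, ND-42 and ND-MWFE would be lost and 11 complex I genes would be bound, against 17.5% of all genes on the same count.

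The 14 unbound complex I genes with a partner included 3 whose partner was bound. They were ND-13A, beside the nesprin gene Msp300 (signal 651), ND-39, beside the zinc transporter gene ZnT77C (531), and ND-75, beside CG1632 (378). The partner's summit lay 7912 bp from the nearest start of ND-13A, 1627 bp from that of ND-39 (inside the ND-39 gene) and 786 bp from that of ND-75. In these pairs the optimal summit lay more than 500 bp from every start of the complex I gene. At the other 11, neither gene was bound. Among them were ND-B16.6 (NDUFA13) and kdn, the citrate synthase gene, whose starts lie 228 bp apart and which had a relaxed summit of signal 32.4 in the 5' untranslated region of kdn. ND-B18 and hiw, a ubiquitin ligase gene, ND-PDSW and the dosage compensation gene msl-2, and ND-23 and the piRNA pathway gene spn-E were further such pairs. The gap was taken as the smallest between divergent starts of the 2 genes. It had a median of 225 bp (42 to 284) where the complex I gene was bound and 265 bp (21 to 983) where it was not. The starts on either side of a summit can lie further apart, as at ND-ASHI and ND-24.

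**Figure D3:**
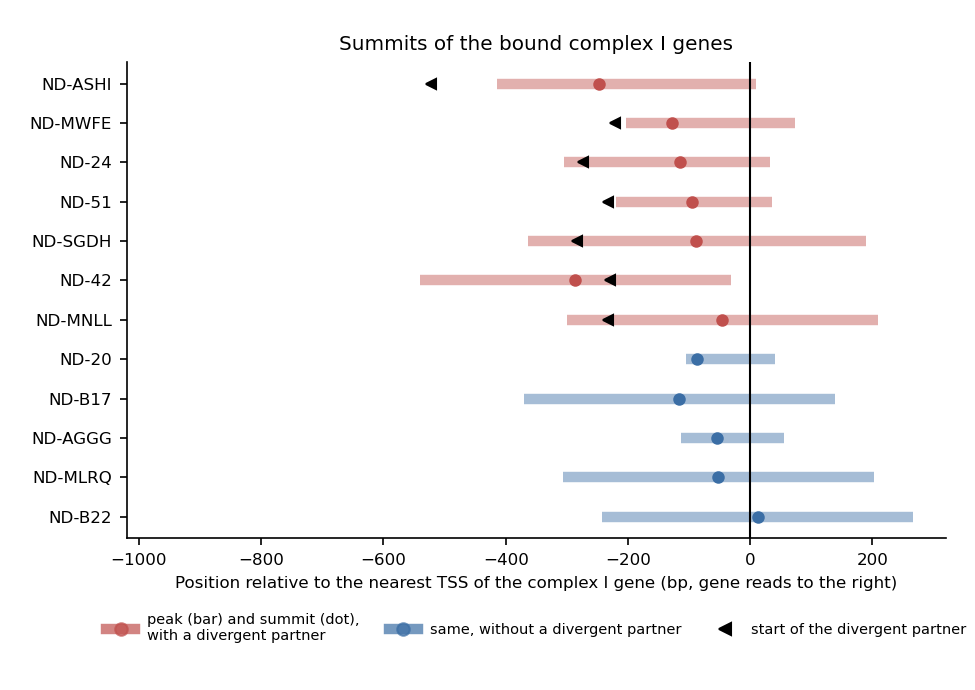
Peaks (bars) and summits (dots) of 12 of the 13 bound complex I genes relative to the nearest TSS of the gene at 0, with the gene reading to the right, and divergent partners' starts as black arrowheads. The summits lie between 286 bp upstream (ND-42) and 12 bp downstream (ND-B22), and that of ND-42 lies beyond the start of its partner.

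The summit lay upstream of the nearest TSS in 12 of the 13 bound complex I genes, against 2720 of all 3058 bound genes. Its median position was 89 bp upstream, with a range of 286 bp upstream to 12 bp downstream, against 129 bp upstream over all bound genes. Of the 13 summits, 7 were intergenic (ND-51, ND-SGDH, ND-MNLL, ND-20, ND-B17, ND-AGGG and ND-MLRQ). An intron held 4, among them that of ND-24 in the gene itself and those in the partner for ND-ASHI (in Fum1) and ND-MWFE (in TppII), and a 5' untranslated region held those of ND-42 (in Cchl) and ND-B22 (its own).

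Both libraries recorded most of these peaks. A peak of each library overlapped the pooled peak at 12 of the 13 bound complex I genes, ND-42 being the exception, and at 2931 of all 3058 bound genes. Such overlap is close to fixed by how the pooled list was made. In the list of the 6636 highest peaks of each library, replicate 1 placed a summit within 500 bp of 12 of 40 complex I genes, against 23.6% of all genes, and replicate 3 also of 12, against 21.8%. Of the 13 bound genes, 11 were in both lists. ND-42 was missing from that of replicate 1 and ND-MLRQ from that of replicate 3, and none of the 27 unbound genes was in either. The matching counts over all bound and all unbound genes were not computed. The same 2 libraries also made the pooled list, so these counts are not an independent check of it. The signal was higher in the replicate 3 list at all 12 genes with both values, with a median ratio of 1.68 (1.08 at ND-SGDH, the lowest, and 2.24 at ND-ASHI), against 1.69 at the 2931 bound genes of all kinds. No scaling of signal between lists is stated, so the ratio describes the lists. The order of the genes differed between them: ND-24 ranked 300 in replicate 1 and 1086 in replicate 3, and ND-SGDH 400 and 1641, while ND-ASHI ranked 398 and 378.

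**Figure D4:**
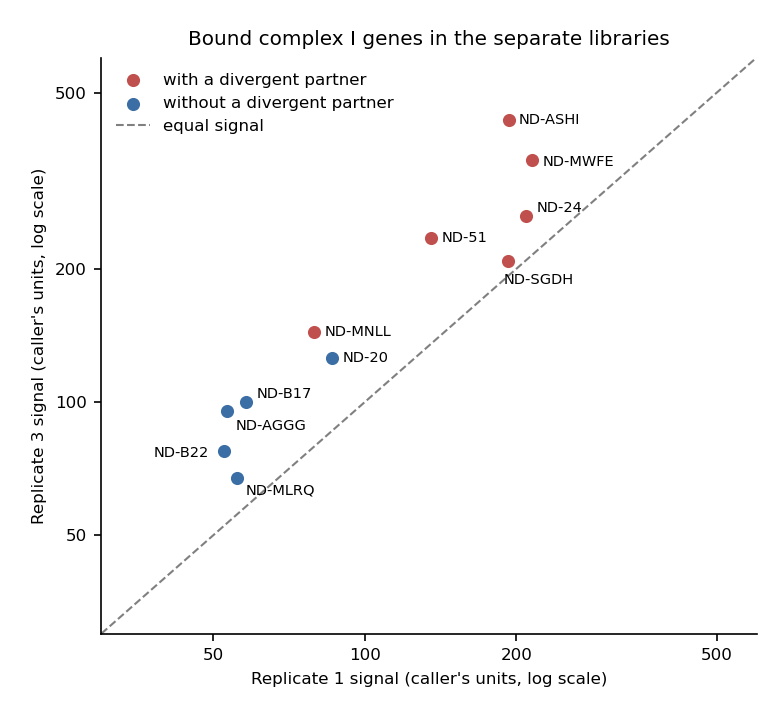
Signal of the overlapping peak in the replicate 3 library against that in the replicate 1 library (both log scales) at 11 of the 12 bound complex I genes found in both, coloured by divergent partner. All 11 lie above the dashed line of equal signal, ND-SGDH nearest to it, and the genes without a partner lie in the lower part.

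The 6 complex I genes with a relaxed summit only were scored below the optimal list. ND-B18 had 81.1 in the pooled list (29.9 in replicate 1 and 50.2 in replicate 3), 45 bp upstream of the start. ND-39 had 56.9 (29.9 in replicate 1 and 31.0 in replicate 3), and ND-B14.5B (NDUFC2) had 51.4 (31.8 in replicate 1 and 24.95 in replicate 3). ND-B16.6 had 32.4 and a peak in replicate 3 only (32.7), ND-15 (NDUFS5) had 23.4 and a peak in replicate 1 only (12.3), and ND-B14.7 (NDUFA11) had 21.3 and no overlapping peak in either library. Relaxed lists hold background as well as peaks, and the −log10 q of these 6 ran from 0.213 to 1.72.

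No pooled summit lay within 500 bp of 15 main copies and all 6 duplicates. Beside those of the N and Q modules and ND-ACP given above, the main copies were the P module genes ND-19 (NDUFA8), ND-B12 (NDUFB3), ND-B15 (NDUFB4) and ND-PDSW (NDUFB10). A library's own relaxed list placed a summit near 3 of these genes, ND-13B (15.9) and ND-B8 (13.6) in replicate 1 and ND-B14 (26.1) in replicate 3. The nearest optimal summit of the 27 unbound complex I genes was 786 to 110996 bp away, with a median of 5867 bp. An optimal summit inside the body of an unbound gene was found at ND-15, with peaks of 238 and 137 at 6351 and 15026 bp from its nearest starts, and at ND-39, with a peak of 531 at 1627 bp.

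No duplicate had a summit in these lists. None of the 6 was bound (exact 95% interval 0% to 45.9%), whereas of the 5 main copies they derive from 4 were bound, ND-20, ND-24 and ND-51 among them, and ND-B14.5A was not. With so few genes, the upper limit for the duplicates lies above the shares of the main copies (38.2%) and of all genes. No duplicate has a divergent partner, and of all genes without one 13.8% were bound, a share inside the interval of the duplicates. The duplicates also differ in gene structure: 3 of the 6 have a single exon, against none of the 34 main copies.

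By chromosome arm, bound complex I genes were 3 of 9 on 2L, 1 of 8 on 2R, 3 of 9 on 3L, 1 of 4 on 3R and 4 of 9 on X. The share of all genes bound on these arms lay between 19.6% (2R) and 24.2% (X).

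Genes that work with complex I were read from lists of assembly factors and of the other respiratory complexes. Of 10 assembly factor genes, which help build the complex without staying in it, 5 were bound (exact 95% interval 18.7% to 81.3%), against 21.9% of all genes. CIA30, the counterpart of NDUFAF1, had a signal of 1439 (rank 14), above that of every complex I subunit gene. ECSIT had 376, 140up, the counterpart of TIMMDC1, had 247, Nubpl, which delivers iron-sulfur clusters, had 234, and CG13392, the counterpart of TMEM126B, had 171. CG11722 (NDUFAF4) had a relaxed summit only (54.3), and CG5569, Egm, l(2)37Bb and sicily had none. Of these 10 genes 7 have a divergent partner, and with each summit given to the nearest start alone 1 of the 10 was bound, against 17.5% of all genes.

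Among the genes of complexes II to V, 13 of 53 were bound (24.5%, exact 95% interval 13.8% to 38.3%), near the 21.9% of all genes. The 53 include genes with the symbols of duplicates, such as SdhAL, UQCR-14L, COX4L and ATPsynbetaL, and none of the genes so named was bound. The share was not computed without them, so it is not matched to that of the complex I main copies (38.2%). Complex II had 2 of 6, the succinate dehydrogenase genes SdhA (204) and SdhC (178). Complex III had 3 of 12, UQCR-C2 (420), UQCR-11 (198) and UQCR-14 (133). Complex IV, cytochrome c oxidase, had 5 of 18, led by COX8 (407), COX7B (394) and COX5A (353), and ATP synthase 3 of 17, blw, its alpha subunit (426), ATPsynCF6 (207) and ATPsynbeta (202). Complex I (32.5%) and complexes II to V had overlapping intervals, and their order depended on the list: with the relaxed pooled list 19 of 40 complex I genes (47.5%) and 26 of 53 genes of complexes II to V (49.1%) had a summit, and the highest peaks of replicate 1 gave 12 of 40 and 16 of 53. In the optimal list, the highest signals of 601 and 426 were both below the 2238 of the highest bound gene.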

How the data were processed

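The labels describe ChIP-seq of woc-eGFP with an antibody against GFP in 2 libraries of whole larvae. The authors deposited narrowPeak lists on dm6 and dm3, namely 1 relaxed list of each library, 1 of the pooled data, and an optimal list after the irreproducible discovery rate (IDR) threshold. The signal of each peak, its −log10 q and the offset of its summit are the authors' values as deposited, and which caller and aligner made them is not given in the sources used. Each library's control alignment entered the calling, per the files deposited with each library. The dm3 lists were not used here.

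From these lists, summits on dm6 were set against the TSS of protein-coding transcripts (Ensembl release 115, BDGP 6.54) within 500 bp. A library's value is the highest of its peaks that overlap the scored peak by 1 bp or more. Divergent partners lie within 1000 bp. Python 3.11.15, pandas 2.3.3, NumPy 2.4.6 and SciPy 1.17.1 were used, and the assignment was tested on simulated peaks. Shares have exact Clopper-Pearson 95% intervals. Promoter windows hold 250 bases before and 50 after the TSS. The members and gene lists were chosen with earlier results of these data known, so no test was made on them. The genes are named, but for 1 gene and its duplicate, which are not reported here on their own and stay in the counts, with partners of bound genes, all bound assembly factors and up to 3 bound genes per other complex. Modules and mammalian roles are textbook assignments. NP15.6, the counterpart of NDUFB11, does not carry the ND- symbol and was not counted, and the names Coa1 and Dmac1 of the assembly list found no gene. Alternatives changed the window, the list, the library, the TSS set and the sharing of summits.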

Additional observations from a re-analysis of the deposited data

Results flagged for a closer look

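The optimal list also holds peaks outside the nuclear genome, and these include complex I genes that the ND- rule leaves out. On the mitochondrial sequence 22 optimal peaks covered 62.3% of 19524 bases, with signals of 120 to 8487, where the highest signal on the chromosome arms was 2866. The highest mitochondrial signal was 7573 in replicate 1 and 1038 in replicate 3. Of the 7 mitochondrial complex I genes, 4 held an optimal summit: mt:ND4 (6714), mt:ND5 (3654), mt:ND1 (2216) and mt:ND2 (566). Optimal peaks also overlapped mt:ND3 and mt:ND6 with no summit inside. Other mitochondrial genes were not counted, so the 4 of 7 has no matched share. At mt:ND4 the libraries gave 6010 in replicate 1 and 520 in replicate 3, and mt:ND2 had 601 in replicate 1 and no value in replicate 3. Control samples were not analysed here.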

How the results depend on the processing

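Of 47 alternative values, 43 stayed within 1.5 times the reported count (1 SD of the genes for the ratio of libraries) and 4 moved further. With the 3318 optimal peaks of highest signal alone, 8 of 40 complex I genes were bound, against 14.2% of all genes. ND-AGGG, ND-B17, ND-B22 and ND-MLRQ were among those that fell out. Of the complex I genes without a partner 1 of 18 was left (5.56%), with no share of all such genes computed on that list. With the relaxed pooled list, 26 of 53 genes of complexes II to V had a summit (49.1%, against 38.5% of all genes), and with summits given to the nearest start alone 1 assembly factor gene was bound. The list of 1 library in place of the optimal one gave 12 and 12 complex I genes, 7 to 8 of those with a partner, 4 to 5 of those without, 5 to 6 of 10 assembly factor genes and 13 to 16 of 53 genes of complexes II to V, where these lists held 23.6% (replicate 1) and 21.8% (replicate 3) of all genes. Shares of all genes with or without a partner were not computed for the library lists, so the counts by partner have no matched background. A window of 250 bp lost ND-42 and one of 1000 bp gained ND-75. No paired analysis was possible because the 2 libraries form 1 group. The 2 libraries, the unknown depth and the small number of genes limit precision.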
